A study of Caenorhabditis elegans with 32 samples.

Results

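The constitutive chaperones of *C. elegans*, its J-domain (dnj) genes and the subunit genes of its cytosolic chaperonin (cct) were followed in sorted O2-sensing neurons and in whole worms at 2 ages and 2 O2 levels. Members were the protein-coding rows named dnj or cct with a number, together with hsp-1, hsp-3, hsp-4, hsp-6, hsp-60, hsp-110 and daf-21. They came to 44 genes (29 dnj, 8 cct and 7 others) of 46726 rows, of which 20447 were protein-coding. All animals were adult hermaphrodites of strain KL123, which carries npr-1(ad609) and the transgene iaIs25, in which the gcy-37 promoter drives GFP. This promoter labels URX, AQR and PQR strongly and, at times, AVM and ASI weakly, so the sorted cells are a mixture of neurons. Neurons were taken by flow cytometry from day 7 or day 1 adults kept at 21% or 7% O2, and the whole-worm libraries were made from a small aliquot of each dissociated suspension before sorting. There were 4 libraries in each of the 8 groups, described as independent biological replicates. Every group was fed mex-3 RNAi bacteria from the L3 stage to block progeny. Day 1 adults were collected on those bacteria, whereas day 7 adults were moved to OP50 on day 4, so that age cannot be told apart from this change of food.

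Chaperones bind unfolded or partly folded proteins and help them to reach or regain their native shape. Hsp70 proteins do so in cycles of ATP use that J-domain proteins start and nucleotide exchange partners end, and the different J-domain proteins direct Hsp70 to different compartments and clients. Hsp90 acts later on many kinases and receptors, while the cytosolic chaperonin, built of the CCT subunits, encloses actin, tubulin and other clients. Separate Hsp70 genes serve the endoplasmic reticulum (ER) and the mitochondria, and the mitochondria also have a chaperonin gene of their own.

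Total counts ran between 5365596 and 30666288 per library, of which 34341 to 324548 fell on the 44 members. A single row, F31C3.14, took 5.33% to 53.8% of a library. Replicates scattered more in neurons, with a biological coefficient of variation of 1.02 over 16 libraries, than in whole worms, with 0.418 over 16 libraries. Levels are given as CPM, counts scaled to library size with TMM factors. The summed CPM of 6 markers of O2-sensing neurons had medians of 703 (21% O2) and 437 (7% O2) in day 7 neurons and 6920 (21% O2) and 6070 (7% O2) in day 1 neurons, against medians of 8.42 to 17.4 in the whole-worm groups. In 1 library of day 1 neurons at 7% O2, replicate 1, that sum was 2740, with 4400 for 6 intestine markers and 6970 for 5 body wall muscle markers. In 1 library of day 7 neurons at 21% O2, replicate 4, that sum was 334, with 14000 for the intestine markers. Day 7 neurons at 7% O2 went as low, at 319 in replicate 4, and held 8700 to 10100 for the intestine markers throughout the group.

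Levels were compared between genes as CPM per kilobase of exon. In day 1 neurons at 21% O2, daf-21, the Hsp90 gene, was highest at 1502 ± 185 (SD, n = 4), followed by hsp-1, the constitutive cytosolic Hsp70, at 1100 ± 255 (SD, n = 4). Next came dnj-13, a class B J-domain partner of cytosolic Hsp70, at 318 ± 57.1. The chaperonin gene cct-5 stood at 202 ± 70.5 and hsp-110, a nucleotide exchange partner of Hsp70, at 177 ± 39.7, which did not differ beyond their spread. Among the dnj genes the next levels were those of the class A partners dnj-12, at 142 ± 37.3, and dnj-19, at 116 ± 10.5, which overlapped within 1 SD. The lowest 3 were dnj-26, dnj-28 and dnj-3, all under 1 CPM per kilobase. The same pair led in day 7 neurons at 21% O2, with 2115 ± 491 for daf-21 and 1305 ± 170 for hsp-1, and in day 1 whole worms at 21% O2, with 1180 ± 225 for daf-21 and 799 ± 200 for hsp-1 (SD, n = 4 each). Between 9 and 13 of the 44 members averaged under 10 CPM in a group, and dnj-3 passed the filter on low counts in none of the comparisons.

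**Figure D1:**
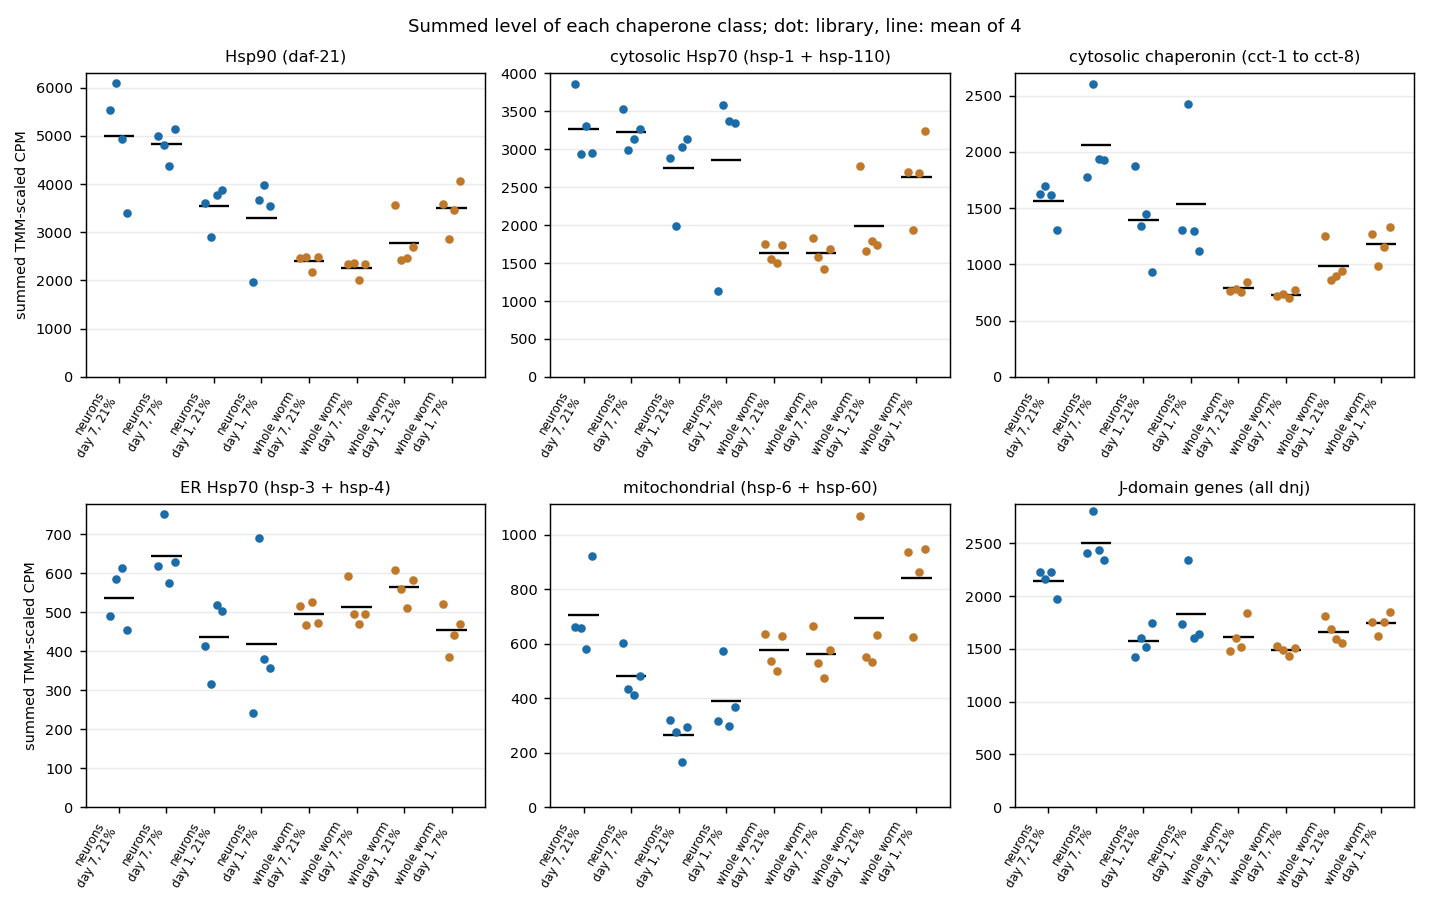
Summed TMM-scaled CPM (vertical axes, starting at 0) of 6 chaperone classes in each of the 8 groups, with neurons left of whole worms, day 7 left of day 1 and 21% left of 7% O2. Each dot is a library and each line the mean of 4. On day 7 the daf-21 level was 3404 to 6092 CPM in neurons and 2004 to 2497 CPM in whole worms.

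The comparison of day 7 with day 1 neurons asks which chaperone genes differ with age in the sorted cells. A gene was called at a Benjamini-Hochberg adjusted p under 0.1, over all genes tested, and a fold change of at least 1.5 in edgeR's quasi-likelihood test. At 21% O2, 7 of the 42 members tested were higher and 2 were lower in day 7 neurons, which is 21.4% of members against 30.1% of all genes called. At 7% O2, 5 were higher and 1 was lower, 14.3% against 36.4% of all genes. The share called higher was 16.7% and 11.9% of members, which stood against 12.1% and 15.4% of all genes, and the share called lower, 4.76% and 2.38%, against 18% and 21.0%. Over the members tested the log2 fold changes had medians of 0.42 (21% O2) and 0.47 (7% O2), against -0.20 and -0.28 over all genes tested. In every day 7 library 6 members were higher and 2 lower than in every day 1 library at 21% O2 (11.3% and 19.7% of all genes), and 4 were higher and 1 lower at 7% O2 (13.9% and 15.8%). The 4 genes called higher at both O2 levels were dnj-27, dnj-20, dnj-14 and dnj-12, and dnj-13 was called lower at both.

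Among called members the largest change at each O2 level was that of a J-domain gene of the ER. dnj-27 encodes the counterpart of mammalian ERdj5, an ER protein with both J and thioredoxin-like domains. At 21% O2 its levels were 232, 146, 156 and 53.5 CPM in day 7 neurons and 0.182, 33.4, 9.24 and 2.82 CPM in day 1 neurons. At 7% O2 they were 221, 205, 131.5 and 172 CPM in day 7 neurons and 27.8, 16.9, 9.87 and 3.75 CPM in day 1 neurons. Every day 7 library exceeded every day 1 library, and replicate 4 was the lowest of the day 7 libraries at 21% O2. The log2 fold change was 3.70 ± 0.90 (SE, adjusted p = 0.00533, edgeR) at 21% O2 and 3.65 ± 0.90 (SE, adjusted p = 0.00458, edgeR) at 7% O2.

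dnj-20 (II:9617469-9624176, WBcel235), the counterpart of ERdj3, a partner of the ER Hsp70, showed less scatter. Its levels at 21% O2 were 209, 238, 409 and 208 CPM in day 7 neurons and 39.2, 59.0, 49.3 and 42.6 CPM in day 1 neurons. At 7% O2 they were 240, 321, 355 and 294 CPM in day 7 neurons and 74.3, 76.0, 51.1 and 91.2 CPM in day 1 neurons. No day 7 library overlapped a day 1 library, and replicate 3 was the highest day 7 library at both O2 levels. Its log2 fold changes were 2.504 ± 0.32 (SE, adjusted p = 1.25e-05, edgeR) at 21% O2 and 2.05 ± 0.31 (SE, adjusted p = 5.13e-05, edgeR) at 7% O2. The remaining ER J-domain genes dnj-7 and dnj-29, counterparts of P58IPK and Sec63, were not called. The ER Hsp70 gene hsp-3 was called at 7% O2 only, at a log2 fold change of 0.89 ± 0.31 (SE, adjusted p = 0.0346, edgeR), where its levels were 540, 603, 546 and 465 CPM in day 7 neurons and 168, 515, 253 and 229 CPM in day 1 neurons. One day 1 library, replicate 2, overlapped the day 7 range. At 21% O2 the hsp-3 value was 0.36 ± 0.31 (SE, adjusted p = 0.451, edgeR), and hsp-4, the other ER Hsp70 gene, was called at neither O2 level, with log2 values of 0.16 and -0.25.

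dnj-14 (X:4709741-4711748, WBcel235) encodes the cysteine string protein, a J-domain chaperone of synaptic vesicles. At 21% O2 it had 109, 57.5, 37.3 and 66.5 CPM in day 7 neurons and 9.99, 20.2, 5.38 and 4.78 CPM in day 1 neurons. At 7% O2 it had 107, 91.6, 151.6 and 65.0 CPM in day 7 neurons and 3.48, 71.9, 15.2 and 5.10 CPM in day 1 neurons. The groups did not overlap at 21% O2, and at 7% O2 a single day 1 library, replicate 2, reached into the day 7 range. The log2 fold changes were 2.76 ± 0.77 (SE, adjusted p = 0.0133, edgeR) and 2.12 ± 0.75 (SE, adjusted p = 0.0386, edgeR). Of its exon bases, 6.11% are shared with dhhc-10 on the other strand, and the unstranded counting cannot tell their reads apart.

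Of the cytosolic J-domain partners of Hsp70, dnj-12 (class A) was higher and dnj-13 (class B) lower at both O2 levels. dnj-12 had 486, 491, 427 and 341 CPM in day 7 neurons and 209, 206, 204 and 331 CPM in day 1 neurons at 21% O2. Its levels at 7% O2 were 492, 856, 416 and 411 CPM in day 7 neurons and 298, 254, 223 and 281 CPM in day 1 neurons. All day 7 libraries lay above all day 1 libraries, by little at 21% O2, where day 1 replicate 4 came close. The log2 values were 0.89 ± 0.28 (SE, adjusted p = 0.0256, edgeR) and 1.05 ± 0.28 (SE, adjusted p = 0.00837, edgeR). dnj-19 was called at 21% O2 only, at 0.64 ± 0.27 (SE, adjusted p = 0.0887, edgeR), a call that was lost when any of 7 of the 8 libraries was left out.

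dnj-13 had 296, 164, 189 and 264 CPM in day 7 neurons and 375, 413, 432 and 559 CPM in day 1 neurons at 21% O2. Its levels at 7% O2 were 221, 178, 337 and 236 CPM in day 7 neurons and 342, 797, 391 and 439 CPM in day 1 neurons. The day 7 libraries were lower without overlap at both O2 levels. It fell by 0.94 ± 0.31 on the log2 scale (SE, adjusted p = 0.0308, edgeR) at 21% O2 and by 1.01 ± 0.31 (SE, adjusted p = 0.0176, edgeR) at 7% O2. Both calls were lost with no low-count filter (-0.71 and -0.78) and with library sizes from protein-coding rows (-0.65 and -0.67). That at 21% O2 was lost as well under RLE size factors and DESeq2 (-0.66 in each, adjusted p = 0.138 in edgeR and 0.14 in DESeq2) and without day 7 replicate 4 (-0.80, adjusted p = 0.101, edgeR). dnj-8 was called lower at 21% O2, at -1.35 ± 0.43 (SE, adjusted p = 0.0267, edgeR), with 40.9, 40.1, 53.4 and 63.9 CPM in day 7 neurons and 123, 174, 132 and 82.5 CPM in day 1 neurons. The dnj-8 call was lost with no low-count filter (-1.10, adjusted p = 0.106, edgeR). At 7% O2 dnj-8 was not called. Its levels there overlapped, with 107.9, 58.3, 99.3 and 120.9 CPM in day 7 neurons and 234.5, 213.1, 62.8 and 80.6 CPM in day 1 neurons.

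**Figure D2:**
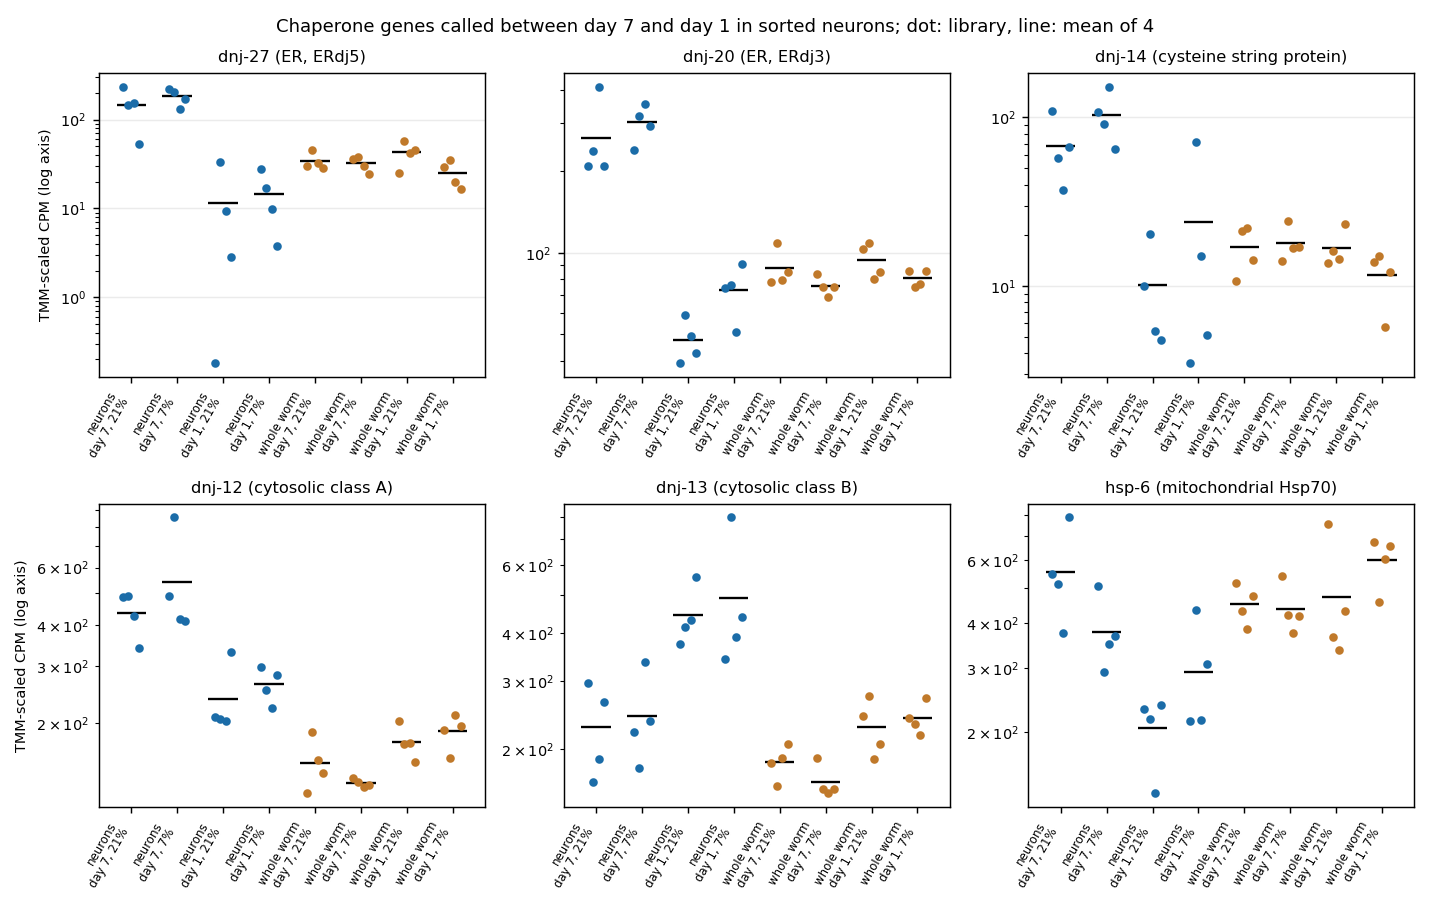
TMM-scaled CPM on log axes of 6 genes called between day 7 and day 1 neurons at 1 or both O2 levels, in each of the 8 groups. Dots are libraries and lines are means of 4. In the panels of dnj-27 and dnj-20 every day 7 neuron library lies above every day 1 neuron library and every whole-worm library except, for dnj-27, the lowest at 53.5 CPM.

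The mitochondrial pair was called at 21% O2. hsp-6, the mitochondrial Hsp70, had 548, 515, 375 and 787 CPM in day 7 neurons and 231, 218, 135 and 237 CPM in day 1 neurons. hsp-60, the mitochondrial chaperonin, had 113, 143, 205 and 137 CPM in day 7 neurons and 88.4, 59.4, 31.3 and 58.4 CPM in day 1 neurons. Neither gene overlapped between the ages, and the log2 fold changes were 1.45 ± 0.31 for hsp-6 (SE, adjusted p = 0.00182, edgeR) and 1.34 ± 0.40 for hsp-60 (SE, adjusted p = 0.0177, edgeR). At 7% O2 the values were 0.38 ± 0.30 for hsp-6 and 0.12 ± 0.39 for hsp-60 (SE, adjusted p = 0.388 and 0.851, edgeR). The age by O2 interaction in neurons called no member, against 7 genes or 0.0597% of all genes, with 3 members (7.14%, against 7.44% of all genes) at an unadjusted p under 0.05, so that the difference between the O2 levels was not shown.

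The most abundant cytosolic chaperones were not called between the ages in this test, although other settings called daf-21. daf-21 had 5526, 6092, 4939 and 3404 CPM in day 7 neurons and 3617, 2910, 3764 and 3886 CPM in day 1 neurons at 21% O2, and these ranges overlapped through day 7 replicate 4. At 7% O2 it had 4994, 4800, 4366 and 5143 CPM in day 7 neurons and 1974, 3663, 3988 and 3542 CPM in day 1 neurons, with no overlap. Its log2 values were 0.51 ± 0.23 (SE, adjusted p = 0.11, edgeR) and 0.56 ± 0.23 (SE, adjusted p = 0.0695, edgeR), and the value at 7% O2 was short of the minimum fold. At 21% and 7% O2 daf-21 was called higher by DESeq2 (0.82 and 0.77) and with RLE size factors. It was also called with protein-coding rows (0.85 and 0.89), no low-count filter (0.75 and 0.79) and a minimum of 1 CPM (0.74 and 0.69). With a replicate block it was called at neither. hsp-1 gave 0.26 ± 0.29 and 0.18 ± 0.29, and hsp-110 gave 0.25 ± 0.27 and 0.21 ± 0.27 (SE). None of the 8 cct genes was called in this test, with values between -0.48 (cct-6) and 0.75 (cct-3) at 21% O2 and between -0.29 (cct-4) and 0.77 (cct-3) at 7% O2. Other settings called some of them higher. At 7% O2 RLE size factors called cct-1 (0.90), cct-3 (0.99), cct-5 (0.80) and cct-7 (0.94), DESeq2 called the same 4 genes, and protein-coding rows called these and cct-2. At 21% O2 cct-3 alone was called, by the same 3 settings and with a minimum of 1 CPM.

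These counts depended on how libraries were scaled. With the size factors of DESeq2 (RLE) in edgeR, 11 members were higher and 1 was lower at each O2 level (28.6% of members, against 29.4% of all genes called at 21% O2 and 35.9% at 7% O2), and daf-21 was then called at 0.82 (21% O2) and 0.77 (7% O2), together with cct-3 at 1.04 at 21% O2. DESeq2 called 38.1% of members at 21% O2 and 33.3% at 7% O2, against 35.5% and 41.7% of all genes, and with library sizes from protein-coding rows the shares were 31% and 35.7% of members, against 28.9% and 35.9% of all genes. The share of members was thus above that of all genes at 21% O2 under these 2 settings and below it with TMM factors. RLE size factors moved the median of all genes to 0.09 and -0.06. Leaving out replicate 1 of day 1 neurons at 7% O2 gave 6 higher and 1 lower (36.8% of all genes called), leaving out replicate 2 of that group gave 10 higher and 1 lower (31%), and leaving out replicate 4 of day 7 neurons at 21% O2 gave 9 higher and 1 lower (24.5%), with daf-21 then called at 0.89.

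Markers of cell types moved with age in the same libraries. All 6 markers of O2-sensing neurons and 7 of 8 markers of all neurons were called lower in day 7 neurons at both O2 levels. The summed level of the 8 pan-neuronal markers was 2490 to 6920 CPM (21% O2) and 2300 to 3480 CPM (7% O2) in day 7 neurons, against 26300 to 44000 CPM and 21900 to 38900 CPM in day 1 neurons. The 6 intestine markers summed to 5450 to 14000 CPM and 8700 to 10100 CPM in day 7 neurons, against 1220 to 3240 CPM and 691 to 4400 CPM in day 1 neurons, with 3 (21% O2) and 4 (7% O2) of the 5 tested called higher and 1 called lower at 21% O2. The 4 glia markers summed to 18.8 to 165 CPM and 133 to 165 CPM in day 7 neurons, against 21.2 to 74.0 CPM and 11.3 to 24.3 CPM in day 1 neurons. The 5 markers of touch neurons, the class to which AVM belongs, summed to medians of 738 CPM (21% O2) and 332 CPM (7% O2) in day 7 neurons, against 7890 and 8120 CPM in day 1 neurons, and all 5 were called lower at both O2 levels. In replicate 2 of day 1 neurons at 7% O2, which overlapped the day 7 range for hsp-3 and dnj-14, they summed to 25700 CPM. The part of these shifts in the chaperone values was not tested, and in such bulk libraries fewer cells of a type and less RNA per cell cannot be told apart. In whole worms of either age dnj-27 had 16.5 to 57.1 CPM and dnj-20 68.5 to 109 CPM, below all but 1 and below all of the day 7 neuron values. A whole-worm level averages over tissues and does not give the level in any single tissue.

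Other genes of protein folding were read from a list that holds no member. Of 11 ER folding genes, 7 were called higher and none lower in day 7 neurons at each O2 level, against 12.1% and 15.4% of all genes called higher. pdi-2, a protein disulfide isomerase, had 1589, 1447, 1347 and 1024 CPM in day 7 neurons and 286, 270, 289 and 329 CPM in day 1 neurons at 21% O2. Its log2 fold change was 2.22 ± 0.23 (SE, adjusted p = 1.06e-06, edgeR) at 21% O2 and 3.12 ± 0.24 (SE, adjusted p = 2.68e-08, edgeR) at 7% O2. The related pdi-1 and pdi-3 gave 2.93 and 1.61 at 21% O2 and 2.68 and 1.80 at 7% O2, and crt-1, which encodes calreticulin, gave 1.502 at 21% O2 (adjusted p of 0.000106 or less, edgeR). xbp-1, a transcription factor of the ER unfolded protein response, fell by 1.96 ± 0.30 on the log2 scale at 7% O2 (SE, adjusted p = 5.52e-05, edgeR). Of 11 partners of Hsp90 and Hsp70, 2 were higher at each O2 level and 1 was lower at 21% O2. Of 7 chaperonin partners 1 was lower at each O2 level, of 4 genes of the unfolded protein response 1 was higher and 1 lower at each, and none of 5 mitochondrial partners was called. In whole worms 1 of the 11 ER folding genes was higher on day 7 at each O2 level and 1 was lower at 21% O2.

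The same age comparison was made in whole worms, where no member was called higher. At 7% O2, 13 of 43 members tested (30.2%) were lower on day 7 and none was higher, against 15.9% of all genes called, 7.49% higher and 8.36% lower. The chaperonin carried much of this count. All 8 cct genes were lower in every day 7 library than in every day 1 library, and 6 were called, while 11.4% of all genes were lower without such overlap. Over all members 16 were lower and 2 were higher in this way, against 8.92% of all genes higher. cct-2 had 70.3, 77.0, 74.0 and 77.0 CPM in day 7 worms and 116, 111, 119 and 148 CPM in day 1 worms, a log2 difference of -0.71 ± 0.14 (SE, adjusted p = 0.00134, edgeR). The cct values ran between -0.89 ± 0.25 for cct-3 and -0.50 ± 0.17 for cct-6 (SE), and cct-4 and cct-6 missed the minimum fold.

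Other abundant chaperones were lower with them. daf-21 had 2340, 2362, 2004 and 2345 CPM in day 7 worms and 3581, 2869, 3461 and 4069 CPM in day 1 worms at 7% O2, and fell by 0.62 ± 0.15 on the log2 scale (SE, adjusted p = 0.00924, edgeR). hsp-1 had 1576, 1386, 1229 and 1505 CPM in day 7 worms and 2292, 1668, 2298 and 2786 CPM in day 1 worms, and fell by 0.66 ± 0.17 (SE, adjusted p = 0.0147, edgeR). Neither overlapped, although replicate 2 was the lowest day 1 library of both. hsp-110 fell by 0.88 ± 0.21 and hsp-60 by 0.99 ± 0.20 (SE, adjusted p = 0.00659 and 0.00233, edgeR). The dnj genes called were dnj-10, the mitochondrial Tid1 counterpart, at -0.94, dnj-9 at -0.72 and dnj-17 at -0.62. At 7% O2 hsp-6 (-0.43), hsp-3 (0.38) and hsp-4 (-0.08) were not called. Without replicate 4 of day 1 worms at 7% O2, 9 members were called and daf-21, hsp-1, cct-5 and dnj-9 were not. Without replicate 3 of day 7 worms at 7% O2 the daf-21 call was lost as well, and without replicate 2 of that group that of dnj-17.

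At 21% O2 only hsp-60 and dnj-21 of 43 members were called, both lower, against 18.7% of all genes called, 7.92% higher and 10.7% lower. hsp-60 had 120, 105, 114 and 152.3 CPM in day 7 worms and 316, 183, 194 and 200 CPM in day 1 worms, without overlap, at -0.81 ± 0.20 (SE, adjusted p = 0.00865, edgeR). dnj-21, the Tim14 counterpart of the mitochondrial import motor, had at most 0.496 CPM in day 7 worms and 0.833 to 2.39 CPM in day 1 worms, and its call was lost without any of 5 of the libraries. The cct genes ranged between -0.42 (cct-2) and 0.02 (cct-6), and cct-2 and cct-5 passed the adjusted p but not the minimum fold. The age by O2 interaction in whole worms called no member, against 0.211% of all genes, with 9 members (20.9%, against 12.9% of all genes) at an unadjusted p under 0.05, so a difference between the O2 levels was not shown. Body wall muscle markers summed to medians of 1100 (21% O2) and 1630 CPM (7% O2) in day 7 worms, against 7240 and 4540 CPM in day 1 worms, and 8 germline markers to 3210 and 2980 CPM, against 2710 and 3890 CPM. Their part in the chaperone values was not tested.

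**Figure D3:**
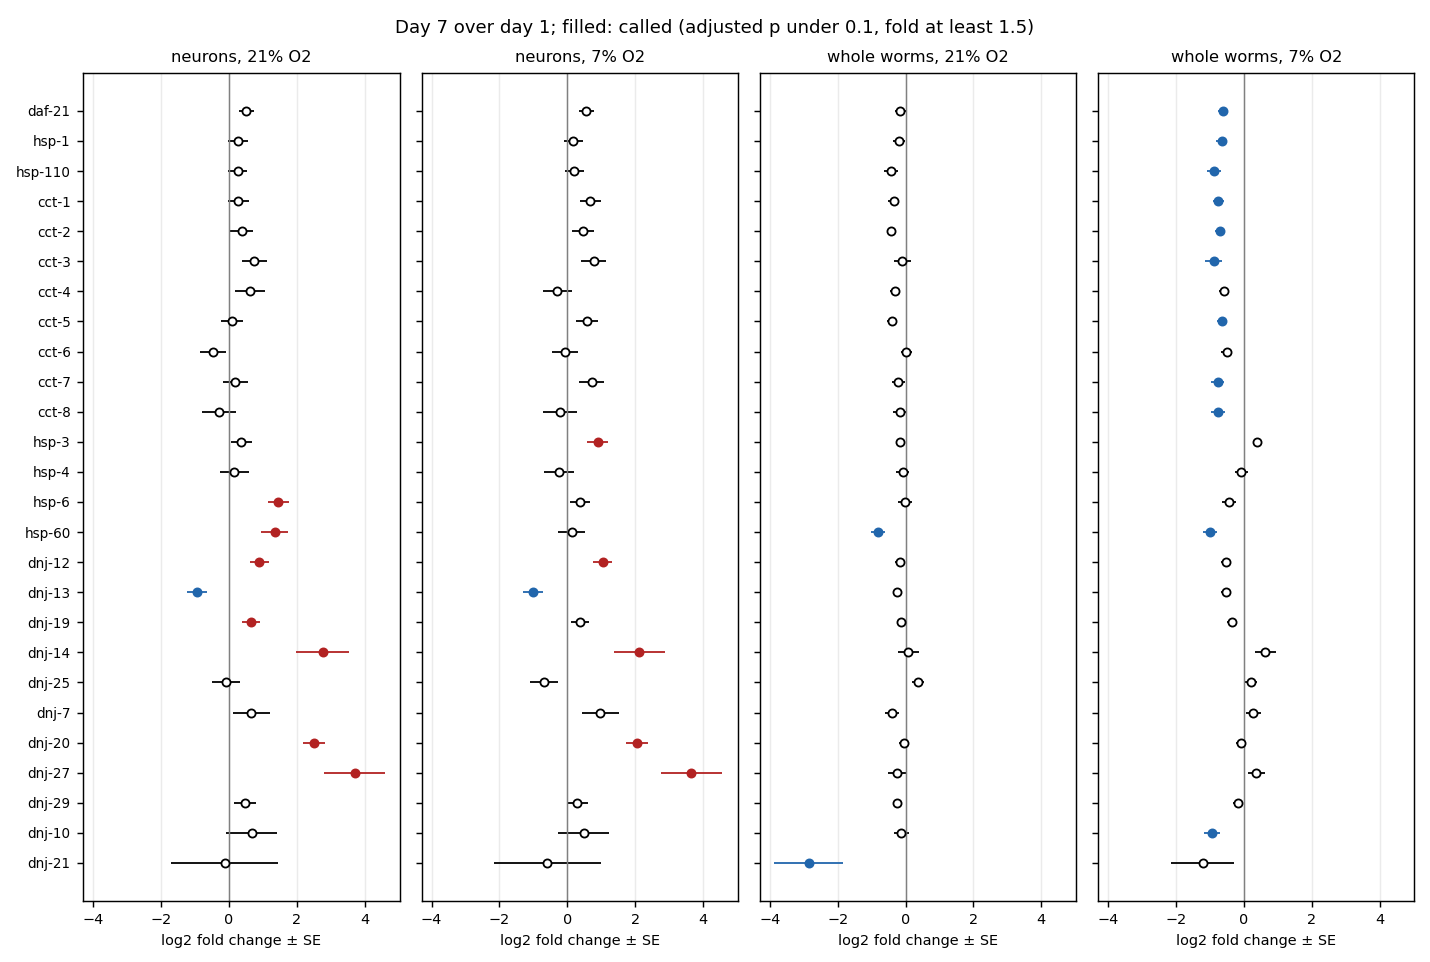
Log2 fold change of day 7 over day 1 (horizontal axes, bars are SE) for the members of known role, in neurons and whole worms at each O2 level. Filled points are called, red higher and blue lower on day 7. The cct genes lie left of 0 in whole worms at 7% O2, between -0.89 and -0.50, and the largest neuron values are those of dnj-27, at 3.70 and 3.65.

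Whether the age difference itself differed between neurons and whole worms was tested in 1 model over the 32 libraries. At 21% O2 the log2 change from day 1 to day 7 was more positive in neurons than in whole worms for 9 of 43 members. It was more negative for 1 (23.3% called, against 21.6% of all genes). At 7% O2 it was more positive for 14 and more negative for 1 (34.9%, against 29.5% of all genes), and 5 of the 8 cct genes were among the 14. The sign does not say which sample type changed. At 21% O2 dnj-8, the 1 more negative, fell in neurons (-1.35), and at 7% O2 hsp-60, among the 14, fell in whole worms (-0.99). The values for cct-3 and cct-1 at 7% O2 were 1.67 ± 0.44 and 1.45 ± 0.36 on the log2 scale (SE, adjusted p = 0.0061 and 0.00333, edgeR). For daf-21 they were 0.70 ± 0.25 at 21% O2 and 1.18 ± 0.25 at 7% O2 (SE, adjusted p = 0.053 and 0.000778, edgeR), and for hsp-60 2.19 ± 0.42 and 1.12 ± 0.42 (SE, adjusted p = 0.000411 and 0.053, edgeR). dnj-20, dnj-27, dnj-12 and dnj-19 were called at both O2 levels.

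The comparison of neurons with whole worms asks which chaperone genes are more or less abundant in the sorted cells. On day 7 most called members were higher in neurons. At 21% O2, 19 of 40 members were higher and 3 were lower (55.0%, against 40.2% of all genes called), and at 7% O2, 18 of 41 were higher and 4 were lower (53.7%, against 45.9%). The share called higher was 47.5% and 43.9% of members and 23.5% and 24.7% of all genes, and the share called lower 7.5% and 9.76% of members and 16.8% and 21.1% of all genes. Without overlap 18 members were higher and 5 lower at 21% O2 (19.8% and 19.3% of all genes), and 20 were higher and 4 lower at 7% O2 (22.1% and 22.9%). daf-21 was 1.07 ± 0.17 and 1.07 ± 0.11 higher on the log2 scale, hsp-1 0.98 ± 0.14 and 0.88 ± 0.12, and hsp-110 1.23 ± 0.18 and 1.46 ± 0.15 (SE, adjusted p of 0.00103 or less, edgeR). For each of these 3 genes every neuron library exceeded every whole-worm library. Without replicate 4 of day 7 neurons at 21% O2, 20 of 40 members were higher and 6 were lower (65.0%, against 49.8% of all genes).

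Of the chaperonin genes, 6 of 8 were higher in day 7 neurons at each O2 level. The highest value was that of cct-3, with 116, 113, 143 and 98.8 CPM in neurons and 44.4, 44.7, 35.7 and 32.2 CPM in whole worms at 21% O2. For 7% O2 the levels were 140, 192, 160 and 136 CPM in neurons and 31.3, 32.7, 34.6 and 24.7 CPM in whole worms. The gene did not overlap at either O2 level, and its log2 differences were 1.61 ± 0.26 (SE, adjusted p = 0.000945, edgeR) and 2.33 ± 0.22 (SE, adjusted p = 1.03e-05, edgeR). The lowest was cct-6, at 0.04 ± 0.33 and 0.52 ± 0.19 (SE), not called. At 7% O2 all 8 cct genes were higher without overlap, against 22.1% of all genes.

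Several dnj genes were higher in day 7 neurons at both O2 levels. They were the ER genes dnj-27 (2.12 and 2.49), dnj-20 (1.62 and 1.98), dnj-7 (1.12 and 1.20) and dnj-29 (0.65 and 0.73), the class A genes dnj-12 (1.55 and 2.03) and dnj-19 (0.73 and 1.06), dnj-14 (2.01 and 2.505) and dnj-24 (2.81 and 2.81), with dnj-1 and dnj-16 at 21% O2 only, and the dnj-16 call was lost without any of 6 of the 8 libraries. The dnj-29 call at 21% O2 was lost under RLE size factors. The calls of dnj-1 and dnj-29 at 21% O2 were each kept in 4 of the 8 fits that left out 1 library. dnj-5 was lower at -1.20 and -0.90 and dnj-11, a counterpart of the ribosome-associated factor zuotin, at -1.33 and -1.49, and dnj-9 and dnj-28 were lower at 7% O2. The dnj-28 call was kept in 3 of the 8 fits that left out 1 library, and those neurons held at most 2.62 CPM of it. hsp-3 was called higher at 7% O2 (0.72) and hsp-4 lower at 21% O2 (-0.85), with log2 values of 0.58 for hsp-3 at 21% O2, short of the minimum fold, and -0.87 for hsp-4 at 7% O2 (adjusted p = 0.125, edgeR). hsp-6 and hsp-60 were called at neither O2 level, with values between -0.27 and 0.32.

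On day 1 the balance was another. At 21% O2, 10 of 42 members were higher in neurons and 11 were lower (50.0%, against 52.8% of all genes called, 30.0% higher and 22.8% lower). Under RLE size factors 3 were higher and 11 lower, under DESeq2 4 and 12, and with library sizes from protein-coding rows 3 and 12. At 7% O2, 4 were higher and 7 were lower (26.2%, against 46.3% of all genes called, 26.8% higher and 19.5% lower). Without overlap 2 members were higher and 10 lower at 21% O2 (25% and 25.7% of all genes), and 3 were higher and 9 lower at 7% O2 (22.2% and 26.3%). At 21% O2 the count was 3 higher and 10 lower once the whole-worm replicate 2 was left out (31% of members, against 48.3% of all genes). At 7% O2 it was 7 higher and 8 lower of 43 without replicate 1 of day 1 neurons (34.9%, against 54.1% of all genes). The calls of hsp-1, hsp-110, cct-1, cct-3, cct-7 and dnj-12 at 21% O2, at log2 differences of 0.59 to 0.85, were all lost under RLE size factors, and none of the 6 genes was called at 7% O2. cct-5 was higher at 21% O2 at 0.88 ± 0.25 (SE, adjusted p = 0.0147, edgeR), and at 7% O2 no cct gene was called. daf-21 was not called at either O2 level, with values of 0.49 ± 0.19 and 0.01 ± 0.26 (SE).

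The mitochondrial genes were lower in day 1 neurons. hsp-6 had 231, 218, 135 and 237 CPM in neurons and 754, 367, 338 and 432 CPM in whole worms at 21% O2, a log2 difference of -1.05 ± 0.31 (SE, adjusted p = 0.0155, edgeR). hsp-60 had 88.4, 59.4, 31.3 and 58.4 CPM in neurons and 316, 183, 194 and 200 CPM in whole worms, a difference of -1.76 ± 0.34 (SE, adjusted p = 0.00137, edgeR). Neither overlapped at either O2 level, and the values at 7% O2 were -0.94 ± 0.28 for hsp-6 and -1.29 ± 0.31 for hsp-60 (SE, adjusted p = 0.0203 and 0.00777, edgeR). hsp-4 was lower at 21% O2 at -0.996 ± 0.27 (SE, adjusted p = 0.0104, edgeR), and hsp-3 was not called.

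Among the dnj genes, dnj-13 was higher in day 1 neurons at 1.12 ± 0.21 (21% O2) and 1.12 ± 0.28 (7% O2), and dnj-8 at 1.26 ± 0.29 and 1.39 ± 0.44 (SE). The lower genes at both O2 levels were dnj-9 (-2.84 and -3.70), dnj-17 (-2.31 and -2.32), dnj-28 (-2.60 and -3.51), dnj-5 (-1.34 and -1.24) and dnj-11 (-1.01 and -1.56). dnj-9 had 9.18, 4.07, 12.98 and 0.977 CPM in day 1 neurons and 69.4, 49.2, 40.5 and 50.4 CPM in day 1 whole worms at 21% O2, without overlap. dnj-24 was called higher at 2.40 and 2.49, calls that were lost without any of 7 (21% O2) and any of 4 (7% O2) of the 8 libraries. dnj-16 was called higher at 7% O2 only, at 1.37 ± 0.49 (SE, adjusted p = 0.0472, edgeR), a call lost without any of 4 of the 8 libraries, and dnj-20, dnj-10 and dnj-22 were lower at 21% O2 only. The dnj-10 call (adjusted p = 0.0851, edgeR) was kept in 4 of the 8 fits that left out 1 library. Over the 4 comparisons of neurons with whole worms, dnj-24 was called higher and dnj-5 and dnj-11 lower in each.

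**Figure D4:**
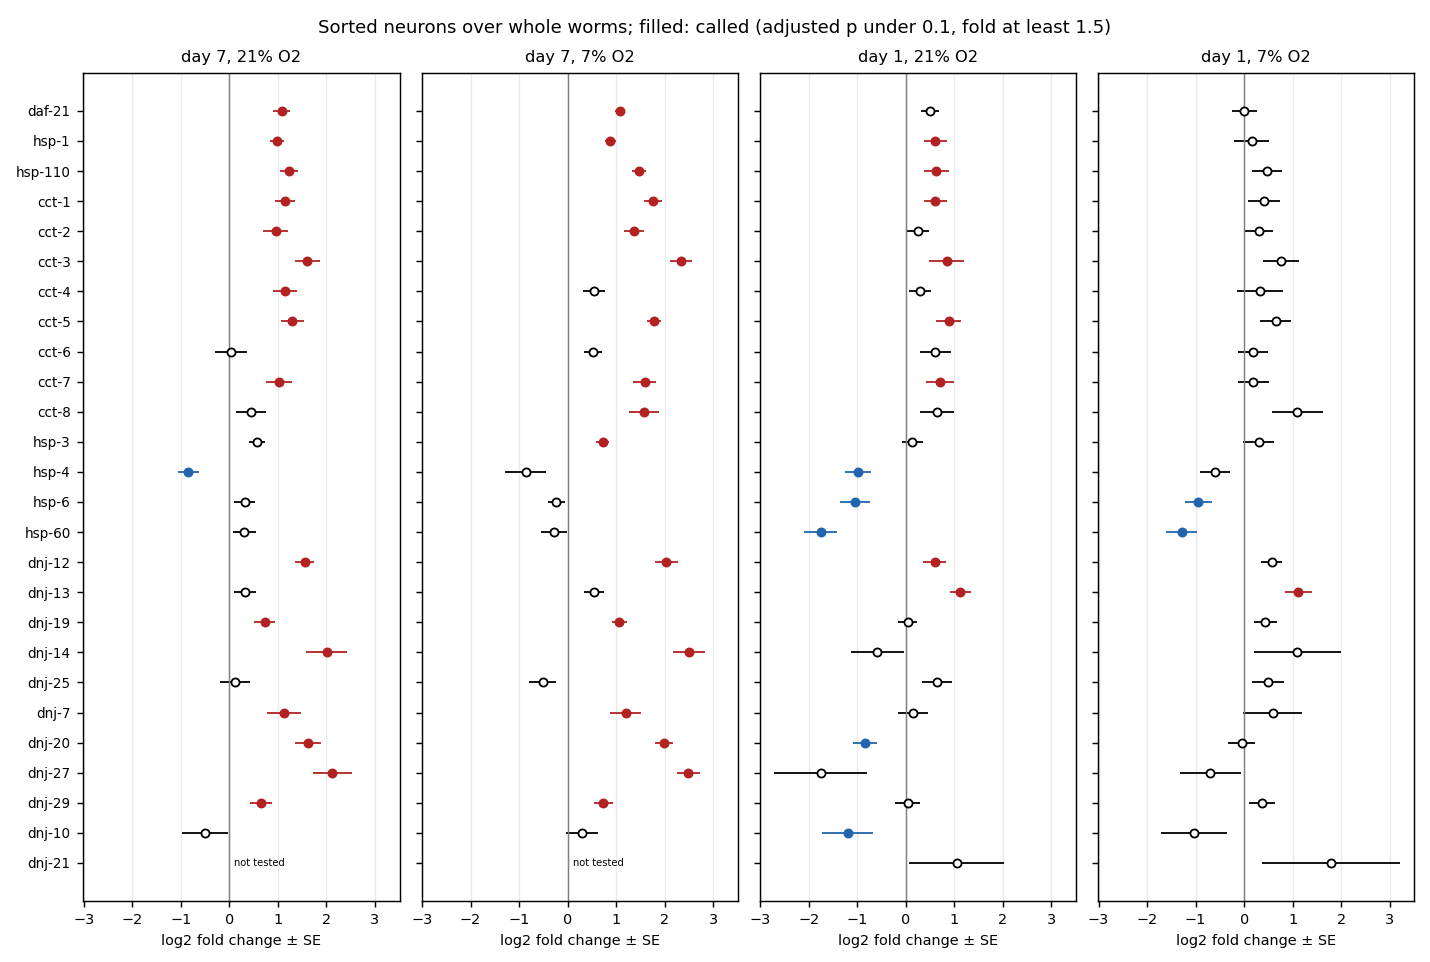
Log2 fold change of sorted neurons over whole worms (horizontal axes, bars are SE) for the members of known role, on day 7 and day 1 at each O2 level. Filled points are called, red higher and blue lower in neurons. On day 7 daf-21, hsp-1, hsp-110 and most cct genes lie right of 0, and on day 1 hsp-6 and hsp-60 lie left of 0, at -1.05 and -1.76 at 21% O2.

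The comparison of 21% with 7% O2 asks whether chaperone genes differ with the O2 level. The authors used that level as a proxy for high and low activity of the O2-sensing neurons. In their imaging AVM and ASI did not respond to O2. In day 1 neurons the 5 touch neuron markers had median sums of 7890 (21% O2) and 8120 CPM (7% O2). The 6 O2-sensing markers had 6920 and 6070 CPM there. In day 7 neurons the medians were 738 and 332 CPM for touch neurons, against 703 and 437 CPM. No member was called in neurons or whole worms at either age by edgeR's quasi-likelihood test, and none by DESeq2. All genes gave few calls as well, 0.154% in day 7 neurons, 0.0939% in day 1 neurons, 0.0551% in day 7 worms and 0.00918% in day 1 worms. At an unadjusted p under 0.05 there were 2 members in day 7 neurons (4.76%, against 7.05% of all genes), 1 in day 1 neurons (2.38%, against 7.09%), 1 in day 7 worms (2.33%, against 5.81%) and 8 in day 1 worms (18.6%, against 12%). In neurons the log2 differences were 0.05 ± 0.23 on day 7 and 0.09 ± 0.23 on day 1 for daf-21, and 0.02 ± 0.29 and -0.06 ± 0.29 for hsp-1 (SE). For hsp-6 they were 0.55 ± 0.31 and -0.52 ± 0.31, and for hsp-60 0.54 ± 0.39 and -0.68 ± 0.39 (SE).

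In day 1 whole worms 1 library decided the count. Without replicate 1 at 21% O2, 6 members were called, of which hsp-1 (-0.66), hsp-6 (-0.68), cct-3 (-0.78), cct-6 (-0.61) and cct-7 (-0.59) were lower and dnj-27 (0.94) was higher at 21% O2, against 2.75% of all genes called. Without replicate 2 at 7% O2, hsp-1 was the single member called, at -0.60, against 1.65% of all genes. That replicate 1 held the highest level of its group for daf-21, at 3562 CPM against 2423, 2464 and 2688 CPM, for hsp-1, at 2264 CPM against 1342, 1536 and 1483 CPM, and for hsp-60, at 316 CPM against 183, 194 and 200 CPM. It was also the highest of its group for germline markers, at 4150 CPM (group median 2710), and pharynx markers, at 631 CPM (next 491). It led by little for body wall muscle markers, at 7960 CPM (next 7530), and intestine markers, at 27900 CPM (next 26900). It was not the highest for markers of all neurons (554, highest 712), O2-sensing neurons (9.57, highest 19.5) or touch neurons (55.8, highest 100). Nor was it for epidermis (295, highest 337), coelomocytes (18.2, highest 28.5) or glia (64.1, highest 86.0). The part of these markers in the chaperone values was not tested. The O2 difference was not shown to depend on sample type, since the interaction called no member at either age, against 0.0375% of all genes on day 7 and 0.03% on day 1.

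Over the 12 comparisons of 2 groups, 34 of the 43 members tested in any of them were called at least once (79.1%, against 76.8% of all genes tested). The 10 never called were cct-6, dnj-15, dnj-18, dnj-2, dnj-23, dnj-25, dnj-26, dnj-3, dnj-30 and dnj-4. Among them dnj-25, named after its values were seen, encodes auxilin, the J-domain protein that uncoats clathrin vesicles. It had 51.9, 40.0, 73.5 and 72.1 CPM in day 7 neurons and 36.4, 66.0, 96.2 and 58.2 CPM in day 1 neurons at 21% O2. Those ranges overlapped throughout, at a log2 difference of -0.09. At 7% O2 it had 30.4, 39.7, 38.2 and 61.9 CPM in day 7 neurons and 57.35, 94.9, 45.2 and 77.55 CPM in day 1 neurons. These were lower on day 7 with overlap, and not called. DESeq2 called its age difference at 7% O2 more negative in neurons than in whole worms (-0.96, adjusted p = 0.0523, DESeq2).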

How the data were processed

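Libraries from 8 groups of 4 were compared. The authors trimmed reads with cutadapt 1.9, aligned them to WBcel235 with STAR 2.5.2b and used featureCounts 1.5.1 without strand information to assign fragments to exons, rows of rRNA biotype being removed, and the counts used here are as deposited, not normalised. Genes were kept with the filterByExpr function of edgeR (minimum count of 10), scaled with TMM factors and tested with edgeR's quasi-likelihood F test in robust mode (edgeR 4.0.16, limma 3.58.1, R 4.3.3), with Benjamini-Hochberg adjustment over all genes tested. SE was obtained by dividing the log2 fold change by the root of the F statistic. Neurons were compared with whole worms in fits of 8 libraries, ages and O2 levels in fits of the 16 libraries of a sample type, and sample types by age or O2 in 1 fit of 32. A call needed an adjusted p under 0.1 and a fold of at least 1.5. Printed CPM used TMM factors over the 32 libraries, and values per kilobase used the exon length of the Ensembl 115 annotation. The alternatives were DESeq2 1.42.0, RLE size factors, protein-coding rows only, no minimum fold, an adjusted p under 0.05, the 2 groups alone, no filter, a filter of 1 CPM throughout a group, a replicate block and each of the 32 libraries left out. The scripts were tested on simulated counts. Tables were handled in Python 3.11.15 with pandas 2.3.3.

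Genes to be named were the hsp genes, daf-21, the highest and lowest cct genes, and dnj genes that were called or had the 3 highest or lowest levels per length in day 1 neurons at 21% O2. Not all of these are given for every comparison, mainly where they were not called. Other folding genes were named if among the 4 smallest p in a neuron age comparison. The members and lists were chosen with earlier results of these data known. Where fewer reads fell on a gene its value is less precise, and library totals are given in the report.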

Additional observations from a re-analysis of the deposited data

Results flagged for a closer look

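In 160 groups of 4 libraries, over 20 members, 13 groups (8.12%) held a library whose gap to its nearest neighbour passed Dixon's 95% limit, where chance gives about 1 in 20. In whole worms these were the lowest daf-21 levels on day 7, 2182 CPM at 21% O2 (next 2468) and 2004 CPM at 7% O2 (next 2340). The others there were the highest levels of hsp-110 on day 7 at 7% O2, 249.1 CPM (next 190.5), of cct-5 on day 7 at 21% O2, 201.1 CPM (next 158.8), of dnj-13 on day 7 at 7% O2, 189.8 CPM (next 157.7), and of hsp-60 on day 1 at 21% O2, 315.7 CPM (next 200.2).

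In day 7 neurons they were the highest levels of cct-6 at 21% O2, 208.8 CPM (next 85.67), of dnj-20 at 21% O2, 408.6 CPM (next 237.9), and of cct-8 at 7% O2, 208.8 CPM (next 107.0). In day 1 neurons they were the highest levels of dnj-12 at 21% O2, 331.1 CPM (next 209.2), of cct-4 at 7% O2, 368.5 CPM (next 99.37), and of dnj-14 at 7% O2, 71.94 CPM (next 15.15), and the lowest level of hsp-1 at 7% O2, 868.1 CPM (next 2770). That hsp-1 value belongs to replicate 1, the library with 6970 CPM of muscle and 4400 CPM of intestine markers, and the part of these in it was not tested.

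The age difference (day 7 over day 1) in neurons minus that in whole worms, on the log2 scale in edgeR's quasi-likelihood test, passed the threshold at 21% O2 for dnj-27 (3.99), dnj-14 (2.73), dnj-20 (2.585), hsp-60 (2.19), dnj-9 (2.15), hsp-6 (1.498), dnj-12 (1.09), dnj-19 (0.81), daf-21 (0.70) and dnj-8 (-1.55). At 7% O2 it did so for dnj-27 (3.28), dnj-20 (2.14), dnj-17 (1.89), cct-3 (1.67), dnj-12 (1.57), cct-7 (1.497), cct-1 (1.45), cct-5 (1.23), daf-21 (1.18), cct-2 (1.17), hsp-60 (1.12), hsp-110 (1.10), hsp-1 (0.84), dnj-19 (0.73) and dnj-26 (-6.41). The dnj-26 value depends on the prior count and is no bound, since all 4 libraries of day 7 neurons at 7% O2 were at 0, against 0 to 2.73 CPM in day 1 neurons at 7% O2. The values of dnj-9 (21% O2) and dnj-17 (7% O2) lost their calls under RLE size factors and with a replicate block, that of hsp-1 under RLE size factors and DESeq2, and that of daf-21 at 21% O2 under DESeq2.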

How the results depend on the processing

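Of 1847 recalculations of 131 single calls, 1673 kept direction and side of the threshold, 174 kept direction only and 0 reversed, and 98 calls were kept in every alternative run for them. These totals include settings with a fixed outcome. Dropping the minimum fold could not lose a call. That setting and the adjusted p under 0.05 reuse the main fit, so neither could reverse one. Alternatives that gave the gene no adjusted p, as where it failed the filter, were not counted. Of the counts of members called, that of the neuron age difference at 21% O2 (9) became 16 under DESeq2, and that at 7% O2 (6) became 12 with RLE size factors, 14 with DESeq2, 15 with protein-coding rows and 10 at 1 CPM. The whole-worm age count at 21% O2 (2) became 1 at 1 CPM, at an adjusted p under 0.05, with no filter, with the 2 groups alone and with protein-coding rows, and 5 with no minimum fold, which gave 20 at 7% O2 (13). The count of neurons against whole worms on day 1 at 21% O2 (21) became 12 at an adjusted p under 0.05, and the age by O2 interactions gave 1 with DESeq2 in neurons and 1 in whole worms. Leaving out 1 library gave 8 to 10 (neuron age, 21% O2), 6 to 11 (neuron age, 7% O2), 1 to 2 and 9 to 17 (whole-worm age), 19 to 26 and 21 to 28 (day 7 neurons against worms), 13 to 23 and 8 to 15 (day 1), and 0 to 6 for O2 in day 1 worms. Beyond the altered filters and thresholds, the cause was not tested. Filters, protein-coding rows, 2-group fits and left-out libraries were not run for the interactions.

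The sources used here do not say whether same-numbered neuron and whole-worm libraries came from 1 suspension. In no comparison were all 4 correlations of same-numbered libraries above 0.1, although 3 of 4 were for O2 in day 1 worms (0.146, 0.438 and 0.111, with -0.006 for the other), and every library correlated best with its own number between neurons and worms on day 1 at 21% O2 and between O2 levels in day 7 worms. With the replicate block the counts were 8 and 8 for neuron age at 21% and 7% O2, 2 and 14 for whole-worm age, 23 and 23 for neurons against worms on day 7, 20 and 9 on day 1, and 9 and 16 for the interaction of sample type and age. For O2 they were 0. In neurons against worms the block ended the calls of dnj-16 on day 1 at 7% O2 (1.26, adjusted p = 0.148, edgeR) and on day 7 at 21% O2 (1.06, adjusted p = 0.13, edgeR), of dnj-24 on day 1 at both O2 levels and of dnj-12 on day 1 at 21% O2, by its fold (0.55). In neuron age it ended that of dnj-19 at 21% O2 and called cct-1 and cct-7 at 7% O2. Depth limits the low dnj genes, of which 9 to 13 members averaged under 10 CPM in a group.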
